A study of Homo sapiens with 6 samples.

Results

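Upstream antisense sites are places where RNA was recovered from the strand opposite a protein-coding gene, just before that gene starts. A site was counted here when its midpoint lay 1 to 1000 bp upstream of the start of the canonical GENCODE transcript, on the strand opposite the gene, and when no gene was annotated on the site's own strand. Of 10639684 sites in 6 PAR-CLIP libraries, 31228 met this rule. They numbered 4327 of 706883 sites in G20, 1242 of 259337 in G35, 1731 of 379718 in G45, 7586 of 2411483 in HuR replicate 1, 7396 of 4024972 in HuR replicate 2 and 8946 of 2857291 in Total.

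All libraries came from HEK293, an established line of human embryonic kidney cells, grown with 4-thiouridine (4SU), exposed to 365 nm UV light and digested with RNase T1, an enzyme that cuts RNA after G. PAR-CLIP finds contacts between protein and 4SU bases by the T-to-C conversions they leave in sequenced cDNA. G20, G35 and G45 were cut from gels at about 20, 35 and 45 kDa after a FLAG M2 immunoprecipitation of tagged green fluorescent protein (FLAG-GFP), a protein that is not known to bind RNA, and served as background. The 2 HuR libraries were replicates from an immunoprecipitation with the same antibody of HuR, a protein that binds U-rich and AU-rich RNA. Total was made from the same kind of lysate with no immunoprecipitation and was depleted of rRNA. Each slice and Total was a single library, so they had no replicate of their own.

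Most mammalian promoters start transcription in both directions. The RNA that leaves the promoter on the opposite strand is called upstream antisense RNA or PROMPT. It is usually short and unspliced, it ends early near polyadenylation signals, and the nuclear exosome removes it soon after it is made. HuR shuttles between nucleus and cytoplasm and is known for stabilizing mRNAs that carry U-rich elements.

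Sites found in the most libraries are shown first, because a small number of them carried much of the reads. Sequences come from the deposited tables, are written 5′ to 3′ on the site's own strand, and have positions in GRCh37 (hg19). Capitals mark matches to GGGG or TTTTT, and sites longer than 30 bases are shown by their last 30 bases. Each site lay outside any annotated gene on its own strand, and that of CD320 also overlapped a gene on the opposite strand.
CD320 chr19:8373751-8373779 (+): attctcggagtcgggttgcttGGGGGGGa
MTF1 chr1:38325302-38325321 (+): ttccggaggaaggtGGGGac
H1-8 chr3:129261940-129261963 (-): aatcagccctgattgggctgggag
SST chr3:187388725-187388747 (+): ttgaagatgtaacGGGGctctaa
SMARCC2 chr12:56584208-56584237 (+): ggttcgaatcctgttcgtgacgggTTTTTT
PSMB3 chr17:36908031-36908060 (-): ttggtggttcgagcccacccagggacgcta

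Sequences were also read out for 6 of the genes with many different upstream antisense sites, which were picked after their values were seen. For 4 of them the site with the most reads is shown for G20 and for HuR replicate 2. These libraries had the lowest and the highest share of upstream antisense sites with TTTTT. Capitals again mark GGGG or TTTTT.
SUPT5H in G20, chr19:39935394-39935423 (-): caggtatttgagactagcatgggcaacaaa
SUPT5H in HuR replicate 2, chr19:39935740-39935769 (-): ctggTTTTTccttcTTTTTctttcTTTTTg
ARHGDIA in G20, chr17:79829750-79829779 (+): cagggctgtGGGGctaggaggagccccttg
ARHGDIA in HuR replicate 2, chr17:79829824-79829852 (+): tgTTTTTctccaggctgagacagaattcg
LBX2 in G20, chr2:74726849-74726878 (+): ctcctagatgtccGGGGagggtatttctac
LBX2 in HuR replicate 2, chr2:74727504-74727533 (+): ctttatcttcTTTTTattaagctcccatag
ZNF274 in G20, chr19:58693934-58693963 (-): tagaggaagggagtaggaaggtcaGGGGtg
ZNF274 in HuR replicate 2, chr19:58694226-58694251 (-): caacttttGGGGaaggaGGGGGactg
Over all 6 genes, which include HES4 and MRPL20, TTTTT stood in 4 of the HuR replicate 2 sites and in 0 of the G20 sites, and GGGG stood in 3 of each. Over all upstream antisense sites, TTTTT stood in 14.8% in HuR replicate 2 and 1.48% in G20, and GGGG in 15.6% and 36.0%. For TTTTT, HuR replicate 1, at 3.08%, was close to G35, at 3.06%.

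To ask whether sites gather near promoters, the density of sites was compared with that of antisense sites 4 to 5 kb upstream of the same starts. Density is given per eligible megabase (Mb), the bases in the window with no gene on that strand, which came to 13.4 Mb near the starts and 13.0 Mb far upstream. Near the starts there were 322 sites per Mb in G20, 92.5 in G35 and 129 in G45. The HuR libraries had 558 ± 10.01 (SD, n = 2) and Total had 666. Far upstream the densities were 97.4, 38.4 and 57.7 in the slices, 242 and 412 in HuR replicates 1 and 2, and 292 in Total. Upstream antisense density was thus 3.31-fold higher than far upstream in G20, 2.41-fold in G35, 2.23-fold in G45, 2.33-fold in HuR replicate 1, 1.34-fold in HuR replicate 2 and 2.29-fold in Total. The direction was the same in 6 of 6 libraries, with a mean log2 ratio of 1.17 ± 0.42 (SD, n = 6). The exact two-sided sign-flip permutation test gave p = 0.03125, the smallest that 6 libraries allow, and 0.0417 after Benjamini-Hochberg adjustment over the 8 tests made. The libraries share a cell line and the slices share a kind of immunoprecipitation, so this p measures only the shared direction of these 6 libraries.

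Density fell with distance, but not from the same point in each library. The bin of 100 bp with the most sites per Mb lay at 201 to 300 bp in G20, G35 and Total and at 101 to 200 bp in G45. It lay at 1 to 100 bp in HuR replicate 1 and at 301 to 400 bp in HuR replicate 2. In the first 100 bp HuR replicate 1 had 808 sites per Mb, 3.34-fold the far level, while HuR replicate 2 had 335, which was 0.813-fold its far level. The median distance was between 344 and 361 bp in the slices and HuR replicate 1, compared to 460 bp in Total and 517 bp in HuR replicate 2. The slices and HuR replicate 1 had 64.4% to 66.1% of their sites within 500 bp, Total had 54.6% and HuR replicate 2 had 48.2%. In both measures the HuR replicates differed from each other more than HuR replicate 1 differed from the slices. Between 3001 and 4000 bp, all 6 libraries were within 0.971-fold to 1.05-fold of the far level.

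**Figure D1:**
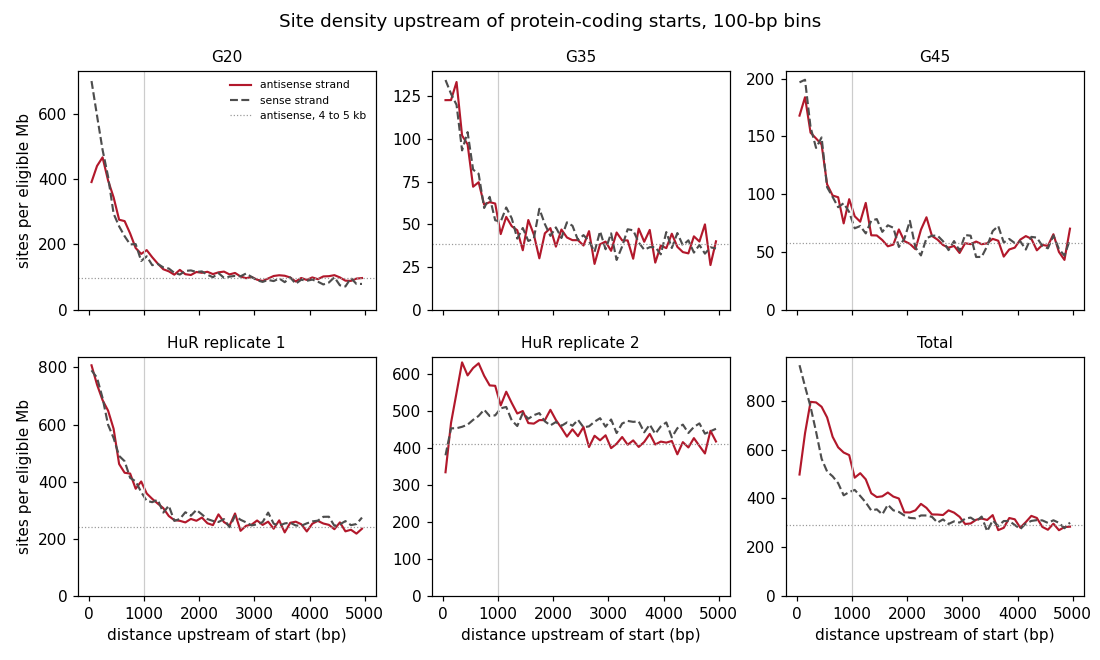
Sites per eligible Mb (y axis) in bins of 100 bp against distance upstream of the start (x axis), for each library on its own scale; solid lines are the antisense strand, dashed lines the sense strand, and dotted lines the antisense level at 4 to 5 kb. Density falls with distance on both strands in the slices and HuR replicate 1, but antisense density in the slices first rises. Antisense density is above sense density in each bin from 301 to 1000 bp in HuR replicate 2 and Total.

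A peak close to a start need not be particular to the antisense strand, so the same windows were also counted on the gene's own strand. Over the whole 1000 bp, antisense density was 0.951-fold sense density in G20, 1.03-fold in G35, 1.00-fold in G45, 1.04-fold in HuR replicate 1, 1.18-fold in HuR replicate 2 and 1.11-fold in Total. The mean log2 ratio was 0.07 ± 0.11 (SD, n = 6), and the exact sign-flip permutation test gave p = 0.219 (0.25 adjusted). Hence no difference between the strands was shown over all libraries. The strands did part by distance in some of them. At 1 to 200 bp antisense density was 0.644-fold sense density in G20 and 0.643-fold in Total. At 401 to 600 bp it was 1.41-fold in Total (1952 antisense and 1464 sense sites) and 1.29-fold in HuR replicate 2 (1572 and 1284), against 1.00-fold in HuR replicate 1 (1357 and 1424), 0.909-fold in G35, 0.988-fold in G45 and 1.13-fold in G20. At 801 to 1000 bp the ratio was 1.39 in Total and 1.17 in HuR replicate 2, and between 0.964 and 1.06 in the other 4 libraries. These ratios by distance were not tested.

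Of all sites of a library, upstream antisense sites made up 0.612% in G20, with a 95% Wilson interval of 0.594 to 0.631. The share was 0.479% in slice G35 (interval 0.453 to 0.506) and 0.456% in slice G45 (interval 0.435 to 0.478). In HuR replicate 1 they made up 0.315% (0.308 to 0.322), in HuR replicate 2 0.184% (0.18 to 0.188) and in Total 0.313% (0.307 to 0.32). The share in each slice was above that in either HuR library, and the mean over slices was 1.05 higher than that over HuR on a log2 scale. With single libraries per slice this difference could not be tested against replicate error, and the libraries differ in depth. When each library was thinned to the smallest total, the log2 difference was 1.05. Among sites with 5 or more reads it was 0.23, and HuR replicate 1 then had 0.533%, above G20 (0.360%), G35 (0.418%) and G45 (0.390%). Intervals and the floors named below cover counting error only, since the reads carried no molecular identifiers.

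Reads were concentrated at few sites. Upstream antisense sites held 506042 reads in G20, 26256 in G35, 37580 in G45, 65440 and 47938 in HuR replicates 1 and 2, and 63106 in Total, of 6187300 to 38644636 reads per library. The 10 most read of these sites held 97.7% of such reads in G20, 67.0% in G35, 74.2% in G45, 41.0% in HuR replicate 1, 28.0% in HuR replicate 2 and 71.7% in Total. The median site had 1 to 3 reads, and 74.3% of upstream antisense sites in HuR replicate 1, but 20.1% in HuR replicate 2, rested on a lone read. Read density near starts was above the far level in 6 of 6 libraries, from 1.66-fold in HuR replicate 2 to 126-fold in G20, with a mean log2 ratio of 2.80 (exact sign-flip permutation p = 0.03125, 0.0417 adjusted). The mean log2 ratio was 1.54 with the 10 most read sites of each set left out. Of the G20 member reads, 96.5% lay at the single site upstream of CD320. Upstream antisense sites held 1.31% of reads in G20, 0.424% in G35, 0.498% in G45 and 0.176% in Total. HuR replicate 1 had 0.687%, above G35 and G45, and HuR replicate 2 had 0.149%. The mean share over slices was above that over HuR, but not with the 10 most read sites of each set left out. Then HuR replicate 1 had 0.406%, HuR replicate 2 had 0.107%, G20 had 0.0298%, G35 0.140% and G45 0.129%.

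CD320 encodes the receptor that takes up vitamin B12 bound to transcobalamin. Its upstream antisense site, 523 bp from the start, had 488224 reads in G20, 3008 in G35, 12064 in G45, 79 in HuR replicate 1, 5518 in HuR replicate 2 and 81 in Total. G20 stood far above the other libraries, and HuR replicate 1 and Total were lowest. In G20 there were 491293 conversion events at this site, or about 1 per read (101 events per 100 reads), and the other libraries had between 93.7 and 101 events per 100 reads at all CD320 sites. The site shared an unbroken run of 18 bases with sites that the authors annotated as rRNA elsewhere in the genome.

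MTF1 encodes a transcription factor that answers to zinc and other metals. Its site, 47 bp from the start, had 2629 reads in G20, 7875 in G35, 6920 in G45, 2412 in HuR replicate 1, 3776 in HuR replicate 2 and 6 in Total. All immunoprecipitated libraries held many reads here, while Total held almost none. Conversions were nearly absent, with 8 events in G35, 11 in G45 and 0 in both HuR libraries. Thus the most read site of G35 had 0.102 conversion events per 100 reads, while that of G45, upstream of CD320, had 101.

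SMARCC2, a subunit of the BAF chromatin remodeling complex, had the site with the most reads in Total. Total held 22023 reads there, against 585 in G20, 81 in G35, 81 in G45, 52 in HuR replicate 1 and 90 in HuR replicate 2. The site is 60 bases long, lay 940 bp from the start, was annotated as repeat by the authors, shared a run of 41 bases with tRNA-annotated sites, and ended in a run of T. RPS29, which encodes a protein of the small ribosomal subunit, had 13669 reads at its upstream site in Total and between 8 and 177 in the other 5 libraries. The authors annotated that site as repeat, it overlapped a gene on the opposite strand, and its reads are not among those counted below as sharing runs with rRNA or tRNA. The comparison of its sequence with other RNAs is not reported here. These 2 sites held 34.9% and 21.7% of upstream antisense reads in Total.

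Upstream of SST, the gene of the hormone somatostatin, HuR replicate 1 had 4735 reads and HuR replicate 2 had 483, compared to 372 in G20, 476 in G35, 834 in G45 and 6 in Total. As reads scaled to a library total of 1e6 (RPM), SST had 256 ± 341 in HuR (SD, n = 2), so the replicates differed by more than their mean. H1-8, an oocyte linker histone, had 2029 reads in G35, 1584 in G45 and 465 in G20, with 62 and 701 in the HuR replicates and 90 in Total. DLAT, a subunit of the pyruvate dehydrogenase complex, had 1057, 839 and 3558 reads at its most frequent site in G20, G35 and G45, 2587 and 832 in the HuR replicates and 0 in Total. The floor of 3 reads corresponded to 0.0835 RPM in Total. PSMB3, a proteasome subunit, had 147, 652 and 386 reads in the slices, 7 and 299 in the HuR replicates and 9 in Total, at a site that the authors called tRNA. HNRNPA1L2, GNG7, DNAH2 and C12orf57 completed the first 12 genes by number of libraries and reads. GNG7, a G protein subunit, was highest in HuR replicate 1 at 133 RPM, and C12orf57 had 96.4 to 100 conversion events per 100 reads in every library.

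**Figure D2:**
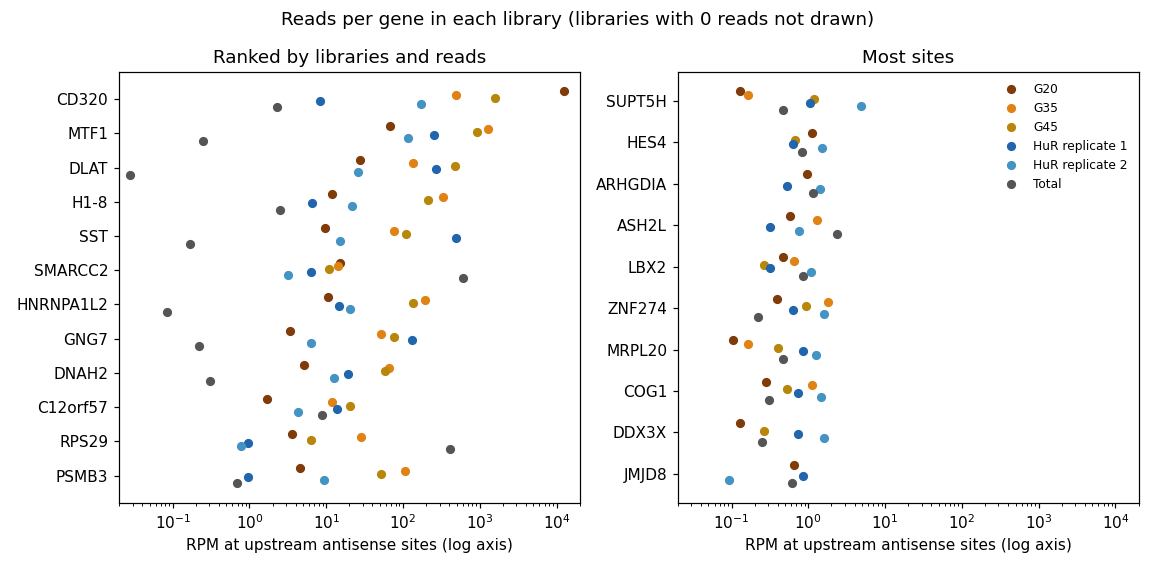
RPM at upstream antisense sites (x axis, log scale) for each gene (y axis) and library (color), for the 12 genes ranked by libraries and reads (left) and the 10 genes with the most sites (right). The left genes range from 0.0278 RPM for DLAT in Total to 12634 RPM for CD320 in G20, and the right genes from 0.0934 RPM for JMJD8 to 4.86 RPM for SUPT5H, both in HuR replicate 2.

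Overlapping sites on the same strand were merged into 26003 loci to see which recurred. Of these, 22433 had reads in 1 library, 2641 in 2, 588 in 3, 160 in 4, 115 in 5 and 66 in all 6. The 66 loci lay upstream of 66 genes. They held 97.7% of upstream antisense reads in G20, 69.0% in G35, 70.3% in G45, 46.5% in HuR replicate 1, 29.3% in HuR replicate 2 and 63.7% in Total, with at most 5.39% of the sites of any library. Over all libraries, 31 of the 66 had under 5 conversion events per 100 reads and 22 had 80 or more. A run of 16 bases shared with an rRNA-annotated or tRNA-annotated site was found in 8 of the 66. Over all upstream antisense sites such runs were found in 0.277% of sites in HuR replicate 1 to 1.53% in G35, but these sites held 96.7% of the reads in G20, 41.1% in Total, 34.2% in G45, 16.1% in G35, 13.8% in HuR replicate 2 and 0.322% in HuR replicate 1. The part of reads from rRNA or tRNA in these values was not tested. Sites shorter than 16 bases cannot share such a run, and the median site had 16 bases in HuR replicate 1 and 17 in G45. The share of sites that came from rRNA or tRNA therefore cannot be read from these counts.

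Of G35 and G45 loci, 51.3% and 49.6% were also seen in another library, and 35.6% of G20 loci were. For HuR replicates 1 and 2 and for Total, 23.7%, 26.1% and 21.5% were. Loci of all other nuclear sites were shared more often in every library, at 53.9% in G20, 58.3% in G35 and 55.9% in G45. For HuR replicates 1 and 2 and for Total their shares were 43.7%, 33.1% and 36.4%. Of the loci of HuR replicate 1, 11.5% were found in replicate 2, and 11.8% of those of replicate 2 in replicate 1. The same shares were 32.7% and 19.5% for loci of all other nuclear sites, 18.1% and 10.7% far upstream on the antisense strand, and 11.04% and 12.9% upstream on the sense strand. Sharing between the HuR replicates was thus highest at all other nuclear sites in both directions, and upstream sense sites were near upstream antisense sites. Differences between sets were not tested.

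Site bases differed from those of other sites in every library. The share of T was 16.5% in G20, 22.2% in G35, 22.2% in G45, 24.0% in HuR replicate 1, 30.9% in HuR replicate 2 and 22.9% in Total, compared to 22.7%, 29.1%, 30.8%, 34.7%, 38.0% and 29.3% at all other nuclear sites of the same libraries. T was therefore lower by 7.66 ± 1.73 percentage points (SD, n = 6), G was higher by 7.76 ± 1.45 and C was higher by 5.72 ± 1.25. Each difference had 1 direction in 6 of 6 libraries (exact sign-flip permutation p = 0.03125, 0.0417 adjusted). Promoter sequence itself is rich in G and C. The eligible antisense sequence held 23.5% T, 26.3% G and 26.8% C within 1000 bp, and 27.4% T, 22.3% G and 22.4% C at 4 to 5 kb. The share of this difference that the window's own composition accounts for was not tested. Low T and high G were not confined to upstream antisense sites. Upstream sense sites held 15.1% T in G20, 20.4% in G35, 20.9% in G45 and 21.2% in Total. In HuR replicates 1 and 2 they held 22.99% and 30.1%. Their T was thus below that of upstream antisense sites in every library. Their G was higher in every library but HuR replicate 2, with 39.8% in G20, 24.3% in HuR replicate 2 and 23.1% in Total. Sense and antisense sites were not tested against each other.

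Set against the window, G20 sites stood out by G, at 39.4%, followed by G35 at 34.1% and G45 at 33.6%. HuR replicate 1 had 28.6% G, HuR replicate 2 had 24.8% and Total had 20.9%, the last 2 below the 26.3% of the window. In T, HuR replicate 2 alone was clearly above the window (30.9%), G20 was lowest, and the rest lay between 22.2% and 24.0%. Total was richest in C, at 32.8%. Far antisense sites showed the same order of G, from 34.8% in G20 to 14.8% in Total. Along the window, T rose and G fell with distance. From 1 to 200 bp to 801 to 1000 bp, T went from 13.9% to 19.3% in G20, from 18.9% to 28.0% in HuR replicate 1, from 25.3% to 32.8% in HuR replicate 2 and from 18.8% to 25.6% in Total, while G went from 41.9% to 36.0%, 33.0% to 24.2%, 30.8% to 22.4% and 27.5% to 16.4%, respectively.

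**Figure D3:**
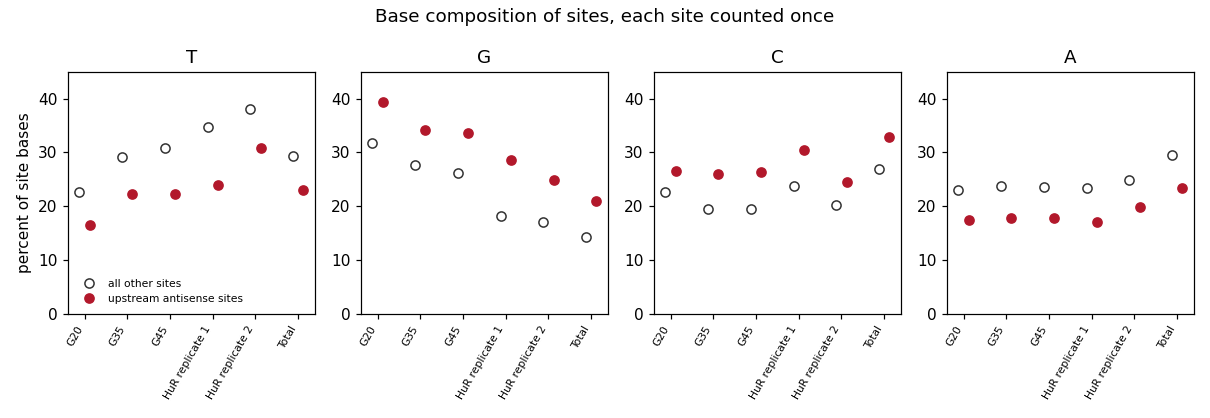
Percent of site bases that are T, G, C or A (y axis of each panel) in each library (x axis), with filled points for upstream antisense sites and open points for all other nuclear sites. Filled points lie below open points for T and A and above them for G and C in all 6 libraries.

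Short motifs were counted on the site's own strand and compared with other sites of the same lengths. GGGG was found in 36.0% of upstream antisense sites in G20 (95% Wilson interval 34.6 to 37.4), against 21.5% of other sites. It was also more frequent in G35 (19.6% against 12.2%), G45 (16.5% against 10.3%), HuR replicate 1 (9.45% against 5.68%), HuR replicate 2 (15.6% against 7.09%) and Total (10.3% against 4.52%). TTTTT was less frequent than at other sites in all 6 libraries, and HuR replicate 2 held the most of it, with 1093 of 7396 sites or 14.8% (14.0 to 15.6), against 17.9% of other sites. HuR replicate 1 had 3.08% and the slices had 1.48% to 3.06%. The AU-rich element TTTATTT was found in 2.83% of the sites of HuR replicate 2 and in 0.208% to 1.10% of those of the other libraries. In every library this was below other sites of the same lengths, which held it in 3.92% in HuR replicate 2.

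Upstream antisense RNA is known for carrying polyadenylation signals and few 5′ splice sites. The signal AATAAA was seen in 1.82% of sites in Total (163 of 8946, interval 1.56 to 2.12), 0.703% in HuR replicate 2 and 0.0578% to 0.347% in the other libraries. Other sites of the same lengths held AATAAA in 2.70% in Total and 1.37% in HuR replicate 2. GGTAAG, the letters of a 5′ splice site, was found in at most 11 sites per library. It was in 0 of 1731 sites of G45, which allows a share of up to 0.173% as 3 counts, or 0.221% as the Wilson upper limit. Other sites of the same lengths also held it rarely. Their share was 0.457% in G20 and 0.128% in Total, against 0.254% and 0.0447% of upstream antisense sites. Sites are short, with a median of 16 to 25 bases, so these counts describe the recovered pieces and not the whole RNA.

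T-to-C conversions were compared by summed events and by sites with 1 read. Summed over sites, there were 98.3 events per 100 reads in G20, 54.9 in G35, 67.3 in G45, 14.6 in HuR replicate 1, 71.7 in HuR replicate 2 and 10.9 in Total, compared to 17.8, 61.8, 56.3, 48.9, 87.3 and 39.1 at other sites. G20 and G45 were higher and the other 4 lower than other sites (mean difference 1.06 ± 42.1, SD, n = 6; exact sign-flip permutation p = 0.969, also after adjustment). The value of G20 was that of the CD320 site: with its 10 most read sites left out, G20 had 31.1 events per 100 reads and G45 had 53.7. With those sites of each set left out, the mean difference was -18.7 and upstream antisense sites were lower in 6 of 6 libraries (exact sign-flip permutation p = 0.03125, 0.0357 adjusted).

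At sites with exactly 1 read each site weighs the same. Here 23.8% of 2403 upstream antisense sites carried a conversion in G20 (95% Wilson interval 22.1 to 25.5), 49.4% of 330 in G35 (44.0 to 54.8), 49.6% of 659 in G45 (45.8 to 53.4), 33.7% of 5636 in HuR replicate 1 (32.5 to 34.9), 56.3% of 1488 in HuR replicate 2 (53.8 to 58.8) and 14.99% of 5898 in Total (14.1 to 15.9). Other sites with 1 read were converted in 34.9%, 61.0%, 56.9%, 63.9%, 62.4% and 23.2%. Upstream antisense sites were lower in 6 of 6 libraries, with a mean difference of -12.4 ± 9.005 percentage points (SD, n = 6; exact sign-flip permutation p = 0.03125, 0.0417 adjusted). Low conversion was not confined to upstream antisense sites. Sense upstream sites with 1 read were converted in 22.1%, 45.9%, 46.0%, 28.5%, 49.2% and 15.3% of cases, lower than upstream antisense sites in every library but Total, and far antisense sites in 30.1%, 57.9%, 51.6%, 40.8%, 52.8% and 19.4%, higher in every library but HuR replicate 2. These sets were not tested against each other. The largest gap to other sites was in HuR replicate 1, at -30.3 points, and the smallest in HuR replicate 2, at -6.08 points. These sites also held fewer T bases that could convert, with a mean of 3.83 to 6.14 T per site against 5.55 to 8.18. Per 100 T bases, events were higher than at other sites in G35 (14.1 against 13.1), G45 (14.6 against 11.4) and HuR replicate 2 (10.7 against 9.05), and lower in G20 (6.47 against 6.88), HuR replicate 1 (8.24 against 9.14) and Total (3.21 against 3.71). The gap of HuR replicate 1 was greatest close to the start, where 21.8% of sites with 1 read were converted at 1 to 200 bp, compared to 41.2% at 401 to 600 bp.

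**Figure D4:**
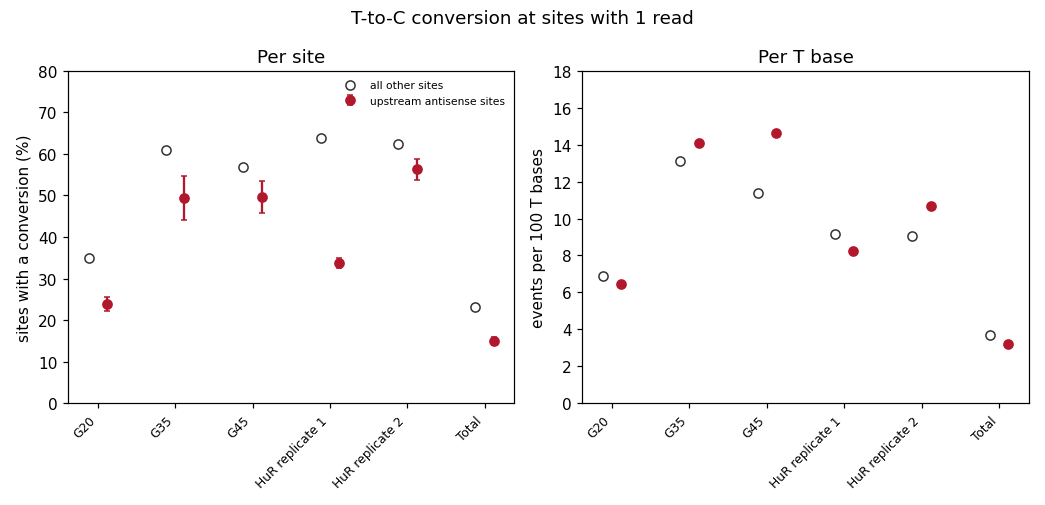
Sites with exactly 1 read in each library (x axis): percent with a conversion, with 95% Wilson intervals (left y axis), and conversion events per 100 T bases (right panel), for upstream antisense sites (filled) and all other nuclear sites (open). Filled points are below open points in all 6 libraries on the left and in 3 of 6 on the right.

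Genes were counted next. Of 16543 protein-coding genes with eligible sequence upstream, 2917 or 17.6% had an upstream antisense site in G20, 1165 or 7.04% in G35, 1595 or 9.64% in G45, 5459 or 33.0% in HuR replicate 1, 4850 or 29.3% in HuR replicate 2, 5040 or 30.5% in Total and 10348 or 62.6% in any library. Only 155 genes had one in all 6 libraries and 6195 had none. Most genes had few sites: 6573 had 2 or more over all libraries, 417 had 10 or more and 38 had 20 or more. These percentages are the background for the gene groups below, whose lists were chosen with results of these data known and which were not tested.

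Genes that kidney cells are not known to use were below the background in every library. Of 335 olfactory receptor genes, 9 or 2.69% had a site in G20, 7 or 2.09% in G35, 9 or 2.69% in G45, 45 or 13.4% in HuR replicate 1, 78 or 23.3% in HuR replicate 2 and 23 or 6.87% in Total. The 84 keratin-associated protein genes had 1.19% to 2.38% in the slices, 14.3% and 22.6% in the HuR replicates and 15.5% in Total. As a ratio to its background, HuR replicate 2 was highest in both groups. By contrast, 31 of 55 replication-dependent histone genes (56.4%) had a site in Total and 29 (52.7%) in HuR replicate 2, each above its background. They were also above background in G35, with 7 genes (12.7%), and slightly in HuR replicate 1, with 19 (34.5%). In G20, with 6 (10.9%), and G45, with 4 (7.27%), they were below it. Ribosomal protein genes, 81 in number, had 42.0% in Total, 42.0% and 40.7% in the HuR replicates and 22.2% in G20. Splicing factor genes of the SRSF and HNRNP families were at 50.0% in Total (17 of 34) and 44.1% in HuR replicate 1. Proteasome genes went from 8.89% in G45 to 42.2% in Total, translation factor genes from 7.81% in G35 and G45 to 37.5% in HuR replicate 1, and zinc finger genes of chromosome 19 from 7.58% in G45 to 30.8% in HuR replicate 1, the last close to the background in all 6 libraries.

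Genes with more mRNA reads in Total more often had a site. mRNA level was taken as Total reads in exons per kilobase of exon, with 3334 genes at 0 and the rest split at 11.4 and 55.6 reads per kilobase into 3 classes of 4403 genes. From no mRNA read to the highest class, G20 went from 125 to 565 upstream antisense sites per Mb, G35 from 49.8 to 131, G45 from 64.3 to 188, HuR replicate 1 from 271 to 854, HuR replicate 2 from 346 to 842 and Total from 243 to 1195. All 6 libraries rose at each step. In Total both numbers come from the same library. Promoters with an observed to expected CpG ratio of 0.6 or more also had more sites than those under 0.6, with 511 against 181 per Mb in G20 and 999 against 416 in Total, and the smallest ratio in HuR replicate 2 (717 against 426). Genes with another gene's start on the antisense strand within 5000 bp had 1008 sites per Mb in Total against 596 for the rest, and 600 against 541 in HuR replicate 2, counted only where no gene was annotated.

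**Figure D5:**
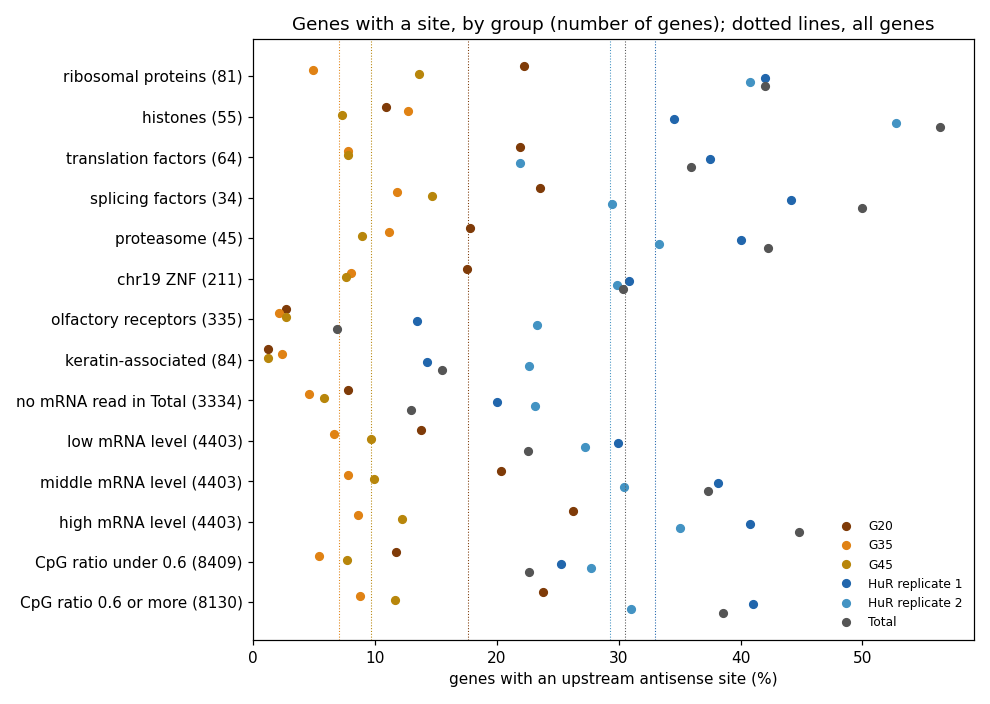
Percent of genes with an upstream antisense site (x axis) for gene groups, classes of mRNA level in Total and classes of promoter CpG ratio (y axis, number of genes in brackets), with 1 color per library and dotted lines for all genes of that library. Olfactory receptor and keratin-associated protein genes lie left of the dotted line of every library. Histone genes lie right of it in G35 (12.7%), HuR replicate 1 (34.5%), HuR replicate 2 (52.7%) and Total (56.4%), and left of it in G20 and G45.

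The genes with the most upstream antisense sites had few reads at each. SUPT5H, which encodes a subunit of the elongation factor DSIF, had 35 sites in 14 loci, with 3 sites in G20, 1 in G35, 3 in G45, 7 and 13 in HuR replicates 1 and 2, and 8 in Total. HuR replicate 2 had 156 reads and 112 conversion events there, Total had 17 reads and 2 events, and G20 had 5 reads and 0 events. Reads in RPM were 4.86 in HuR replicate 2, 1.05 in HuR replicate 1 and 0.129 to 1.19 in the slices. The SUPT5H sites all overlapped a gene annotated on the opposite strand as well.

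HES4, a transcriptional repressor of the hairy family, had 34 sites, of which 9 were in G20, 12 in Total and 0 in G35. Its 43 reads in G20 carried 4 events, while the 48 reads in HuR replicate 2 carried 50. ARHGDIA had 33 sites, 12 of them in G20 with 37 reads and 1 event, and 6 in HuR replicate 2 with 46 reads and 30 events. The same contrast was seen at LBX2, a homeobox gene, with 2 events in 18 reads of G20 and 33 in 35 reads of HuR replicate 2, and at DDX3X, a DEAD box helicase gene, with 0 in 5 and 53 in 51. ZNF274, which encodes a zinc finger protein, had 3 events in 15 reads of G20, 14 in 11 reads of G35 and 64 in 51 reads of HuR replicate 2. ASH2L, a subunit of histone methyltransferase complexes, was highest in Total with 84 reads and 6 events. MRPL20, of the mitochondrial ribosome, and COG1, of the Golgi, had 28 and 27 sites, and JMJD8 had 25, of which 10 each were in G20 and Total. None of the sites of these 10 genes shared a run of 16 bases with an rRNA-annotated or tRNA-annotated site. No site of theirs had more than 56 reads. As at SUPT5H, all sites of LBX2, COG1 and JMJD8, and 96.2% of those of DDX3X, also overlapped a gene on the opposite strand. At HES4, ARHGDIA, ASH2L, ZNF274 and MRPL20 at most 10.3% did. At all 10 genes there were more events per read in HuR replicate 2 than in G20 or Total. All other sites had the same order, with 87.3 events per 100 reads in HuR replicate 2 against 17.8 in G20 and 39.1 in Total, so it was not particular to these genes. The other 3 libraries were not compared.

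A set of 5 genes whose upstream antisense RNAs are often assayed after loss of the exosome was also read out. DNAJB4, a heat shock protein of the DnaJ family, had 3 reads in HuR replicate 1, 42 in HuR replicate 2, 28 in Total and 0 in every slice. Its most frequent site, chr1:78469904-78469926 on the minus strand, overlapped a gene on the opposite strand and is shown as an upstream antisense site free of any G run.
DNAJB4: ttacttcaactaaactaaaactg
There were 35 events among the 42 reads of HuR replicate 2 and 6 among the 28 of Total. EXT1, an enzyme of heparan sulfate synthesis, had 2 to 7 reads in G20, both HuR replicates and Total and 0 in G35 and G45. ZFR, a zinc finger protein that binds RNA, had 2, 2 and 3 reads in the HuR replicates and Total, and POGZ, a chromatin protein, had 3 reads in HuR replicate 2 alone. RBM39, a splicing factor, had 0 in all 6 libraries over 358 eligible bases, which allows up to 0.0776 to 0.485 RPM by library. Apart from DNAJB4 in HuR replicate 2 and Total, counts for these genes were too low at this depth to set libraries apart.

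As to position, 31.6% to 39.5% of upstream antisense sites overlapped a gene annotated on the opposite strand, such as a longer transcript of the gene itself. Between 0.725% of sites in G35 and 6.86% in G20 overlapped a site on the other strand of the same library. The authors' own annotation called 87.0% to 90.5% of these sites intergenic in the slices and HuR and 8.26% to 11.1% repeat, except that 7.66% of those in HuR replicate 1 were called repeat. In Total, which carries only a repeat class, 11.5% were repeat.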

How the data were processed

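Per the labels and methods, the authors mapped adapter-trimmed single reads to hg19 with Bowtie and defined sites with PARalyzer. The deposited tables hold raw counts of reads, conversion positions and conversion events for each site, left unnormalized by the authors. Groups, which are sites with any read, were used here, with clusters as an alternative. Positions were checked against GRCh37, and 562791 of 562794 sequences matched.

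Starts were those of the Ensembl canonical transcripts of 19881 protein-coding genes in GENCODE release 44 mapped to GRCh37. A site went to the nearest such start. Members, gene lists and motifs were chosen with earlier results of these data known. Named genes are the first 12 by number of libraries with a site, then by the geometric mean of RPM, plus the gene of the most read site of each library, which were among them, and a list of 5 assayed genes. The 10 genes with the most sites were added after the values were seen.

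The 8 tests were exact two-sided sign-flip permutation tests over 6 libraries with a threshold of 0.05. Libraries were not compared between groups, because the slices and Total are single. HuR is given as mean and SD of 2 replicates, which the labels do not place in separate cultures. Libraries held 6187300 to 38644636 reads. Distances and overlaps were tested on simulated data, with 0 of 12000 and 0 of 6000 wrong. Tools were scipy 1.17.1, pandas 2.3.3, numpy 2.4.6, matplotlib 3.10.9 and Python 3.11.15. Alternatives changed the read minimum, window, start, annotation, kind of site, depth and libraries. Reads themselves were not analysed here, and the sequence of 1 site is not reported here.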

Additional observations from a re-analysis of the deposited data

How the results depend on the processing

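With 5 libraries the exact test cannot give a p under 0.0625, so leaving out a library removed every call by construction. Without 1 library, the mean log2 ratio of site density ranged from 1.05 to 1.31, that of read density from 1.96 to 3.21 and that of antisense to sense density from 0.04 to 0.10. The mean differences ranged from -7.95 to -7.04 percentage points for T, 7.21 to 8.02 for G, 5.51 to 6.07 for C, -13.7 to -8.86 for converted sites with 1 read and -14.8 to 8.13 for events per 100 reads. The slices' share of sites over that of HuR, as a log2 ratio, was 0.71 without HuR replicate 2 and 1.49 without HuR replicate 1, and the share of reads ranged from 0.12 to 2.32.

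Under the other settings, 99 values were unchanged, 12 changed sign, 6 moved and 5 calls were lost. For tested results, unchanged means the same direction and the same side of the threshold. Shares and gene counts, which have no test, were judged by loose rules. A log2 ratio of shares was unchanged if it moved by less than the SD of the 2 HuR replicates on that scale. Gene counts were allowed to differ by a set fold. The ratio of shares of reads with clusters, 1.51 against 0.83, thus counted as unchanged. So did 6978 genes with no gene on either strand, against 10348. The 5 calls were lost with clusters, which have at least 5 reads, in place of groups. Site density went from 1.17 to 0.81 and read density rose from 2.80 to 3.76 (both exact permutation p = 0.03125, adjusted 0.0729). G was 5.66 (exact permutation p = 0.03125, adjusted 0.0729). For site density, read density and G, all 6 libraries kept their direction, and only the adjusted p crossed the threshold. T was -4.62 and C was 4.08 (both exact permutation p = 0.0625, adjusted 0.0875). T was higher than at other sites in 1 of 6 libraries, and C was higher in 5 of 6. The cause of these changes in direction was not tested. The log2 ratio of shares of sites was 1.93, and 1593 genes had a site. Sites with 5 or more reads gave a ratio of shares of sites of 0.23 and 2906 genes. Antisense against sense density changed sign with 5 or more reads (-0.0881), within 500 bp (-0.0267) and with clusters (-0.0039), and was called in no setting. The difference in events per 100 reads, also without a call in the main setting, changed sign within 500 bp (-19.5), from the most upstream start (-0.0187), without sites overlapping rRNA, tRNA, miRNA or repeat clusters (-7.96), and under both alternatives chosen after seeing the data, without sites annotated as those classes (-9.32) and with no gene on either strand (-15.9). When the 10 most read sites of each set were left out, it was -18.7, lower in 6 of 6 libraries (exact permutation p = 0.03125, adjusted 0.0357). The log2 ratio of shares of reads, 0.83, changed sign within 500 bp (-0.65), without those 10 sites (-1.37) and with no gene on either strand (-0.65), and rose without the rRNA, tRNA, miRNA and repeat classes (3.39 by clusters, 3.35 by the site's own annotation). By clusters, the share in G20 went from 1.31% to 11.9%. G35 then had 0.563% and G45 0.659%, both below HuR replicate 1 (0.684%) and above HuR replicate 2 (0.152%). Antisense could not be set against sense with no gene start on the site's own strand within 1000 bp, because no sense window was left. No paired analysis was possible because only HuR has numbered replicates, so no other group shares its numbers; the exact tests pair sets of sites within a library, not replicates. Depth limits counts of sites, since 74.3% of upstream antisense sites in HuR replicate 1 rest on 1 read.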
